A study of Homo sapiens with 6 samples.

Results

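The potassium channel genes were taken as every gene symbol that begins with KCN, the root shared by pore-forming subunits and by many of their auxiliary subunits, without symbols marked -AS or -IT. The tables held 83 such genes among 24432 symbols, and 9 symbols with these marks were left out. All 6 libraries came from total RNA of cells labelled PLC/PRF/5, a human cell line established from a hepatocellular carcinoma. The 3 sensitive libraries carried the treatment label control and the genotype label WT. The 3 resistant libraries carried the treatment label Lenvatinib and the genotype label Lenvatinib resistant. The resistant cells had been passaged in rising doses of this kinase inhibitor, from 20 µmol/L in steps of 0.5 mmol/L to 40 mmol/L as the labels print the units. Both groups were grown in the same serum-containing medium, and no label says how many clones made up the resistant cells. Drug exposure and resistance cannot be told apart, because only the resistant libraries had either. The labels do not say that replicates were separate cultures, so p-values measure the spread between these libraries, which may be technical.

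Potassium channels let potassium ions leave or enter cells along their electrochemical gradient, and so set the resting membrane potential, cell volume and the driving force for calcium entry. Pore-forming subunits fall into voltage-gated channels, channels opened by intracellular calcium or sodium, inward rectifiers and tandem-pore (K2P) leak channels, and auxiliary subunits alter their gating or trafficking. In liver cells, potassium channels take part in volume regulation and bile formation. Several voltage-gated and calcium-activated channels have been studied in tumour cell proliferation and migration.

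Values are in FPKM, fragments scaled to transcript length and to the mapped fragments of the library, which allows levels of different genes to be compared per unit length. Where a gene's values are given one after the other, they stand in the order of replicates 1, 2 and 3. The value of 1 read or fragment of a gene was estimated to differ by at most 3.46% between the 6 libraries. Only ratios close to 1 were searched, so this estimate could not have shown a large difference in depth. Within groups, Pearson's r across tested genes ran from 0.952 to 0.996, with sensitive replicate 3 at 0.952 and 0.964 from the other sensitive libraries, and libraries of different groups at 0.680 to 0.706. The labelled cell type could be recognised in the sensitive libraries and hardly in the resistant ones. The 16 hepatocyte markers summed to between 4695 and 5260 FPKM in the sensitive and between 18.5 and 47.5 FPKM in the resistant libraries, the highest resistant value being that of replicate 2. In these libraries 14 of the 16 reached 1 FPKM in every sensitive library and 4 did so in every resistant library, and TTR and HP were under 1 FPKM throughout. Of 6 neuronal markers in the files, 4 were lower in every resistant library, and their sum was 34.5 to 77.6 FPKM in the sensitive libraries (highest in replicate 3) and 3.94 to 4.59 in the resistant ones. The 4 cholangiocyte markers summed to 28.7 to 33.7 FPKM in the sensitive and 119 to 136 in the resistant libraries, but did not move together. KRT7 (at most 0.968 FPKM in sensitive, at least 96.9 in resistant libraries) and SOX9 were higher in every resistant library. EPCAM was lower in every resistant library, at 25.7 to 30.0 FPKM in the sensitive and 10.7 to 11.7 in the resistant ones. KRT19 was under 1 FPKM in every library. Fibroblast, endothelial and muscle markers were low. Their sums stayed at or below 1.76, 0.348 and 0.191 FPKM in every library, and KDR and MYOD1 were listed at 0 in all of them. The 4 leukocyte markers in the files summed to 11.97 to 18.7 FPKM in the sensitive and 6.08 to 6.40 in the resistant libraries, with PTPRC listed at 0 in all 6. CD68 was lower in every resistant library, at 11.7 to 18.2 FPKM in the sensitive and 2.28 to 3.58 in the resistant ones. LST1 went the other way, from at most 0.196 FPKM to at least 2.28 FPKM. In such bulk RNA, fewer cells that express a gene and less of its RNA per cell cannot be told apart. What part these marker differences play in the channel results was not tested. All 6 libraries carry the same cell line label, and whether the resistant ones derive from that line was not tested either.

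Most potassium channel genes were scarcely detected. Of the 83, 70 (84.3%) stayed under 1 FPKM in every library, against 48.3% of all genes in the files, and 6 were listed at 0 in all 6 libraries. The other 13 reached 1 FPKM in at least 1 library. In every sensitive library 4 genes reached that level, and in every resistant library 8 did, with 2 genes, KCNC4 and KCNK6, common to both counts. Another 2 genes, among them KCNN1, reached 1 FPKM in every sensitive library and no resistant one, and 6, among them KCNAB2, KCNH1, KCNJ14, KCNMB3 and KCNN4, reached it in every resistant library and no sensitive one. These 8 genes are 9.64% of the 83, and 7.39% of all genes in the files split between the groups in this way. KCNK13 reached 1 FPKM in 2 sensitive libraries, KCND1 in 2 resistant libraries, and KCNJ11 in 2 sensitive and 1 resistant.

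**Figure D1:**
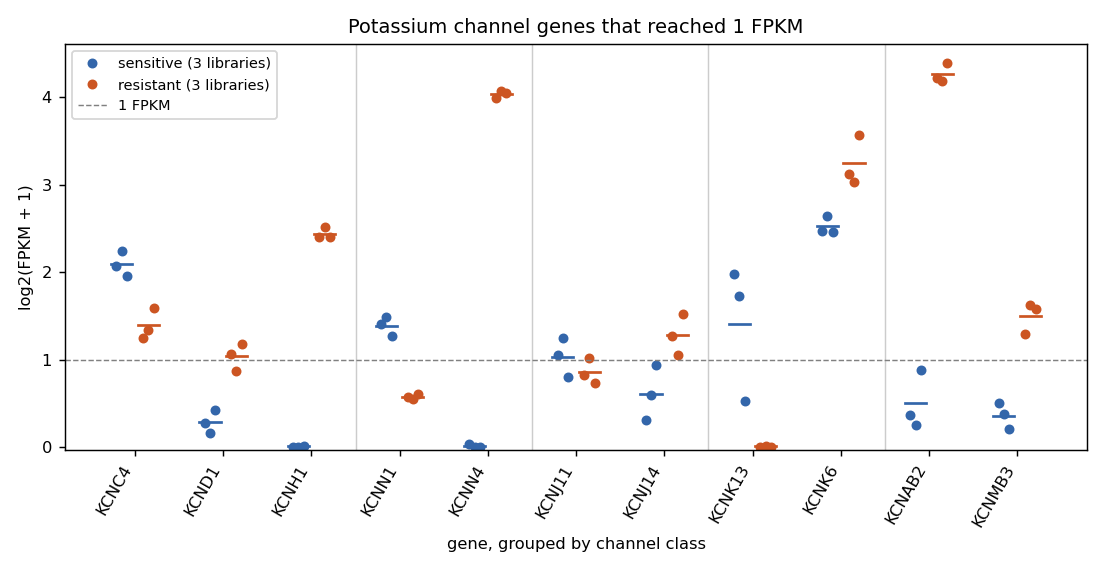
Levels of 11 of the 13 potassium channel genes that reached 1 FPKM in at least 1 library, as log2(FPKM + 1) on the vertical axis, with a point per library, a short line at the mean of 3 libraries and a dashed line at 1 FPKM. In sensitive libraries KCNN4 and KCNH1 lie near the bottom and KCNAB2 below the dashed line, and all 3 lie well above it in resistant libraries. KCNK13 lies at the bottom in resistant libraries and above the line in 2 of the 3 sensitive ones.

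The summed level of all 83 genes came to 21.9, 22.9 and 19.0 FPKM for the sensitive and 55.7, 57.0 and 64.7 FPKM for the resistant libraries. KCNAB2 and KCNN4 made up 55.0% to 58.6% of the sum in the resistant libraries, against 0.833% to 4.42% in the sensitive ones. Without these 2 genes the sums were 21.6, 22.7 and 18.2 FPKM in the sensitive libraries and 23.1, 24.0 and 29.1 FPKM in the resistant ones, the lowest resistant sum lying just above the highest sensitive one. In the sensitive libraries the highest means were those of KCNK6 (4.77 ± 0.394 FPKM, SD, n = 3) and KCNC4 (3.27 ± 0.426), and KCNK6 stood clear of KCNC4. In the resistant libraries the order was KCNAB2 (18.3 ± 1.51 FPKM, SD, n = 3), KCNN4 (15.4 ± 0.446), KCNK6 (8.61 ± 2.01) and KCNH1 (4.43 ± 0.254), and no neighbours among these 4 overlapped. From KCNMB3 (1.84 ± 0.345 FPKM) down through KCNC4, KCNJ14, KCND1 and KCNJ11, each gene overlapped the next.

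**Figure D2:**
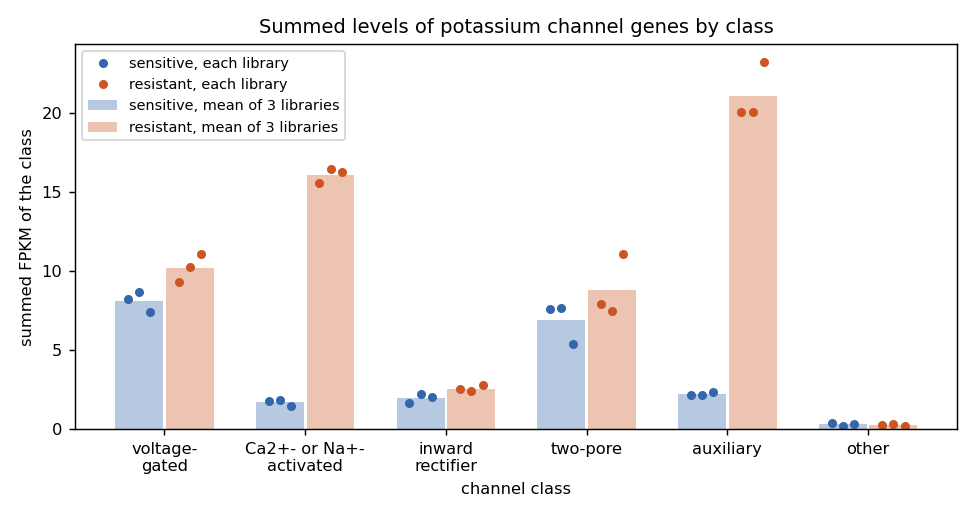
Summed FPKM of the members of each channel class on the vertical axis, with bars for the mean of 3 libraries and points for single libraries. The calcium- or sodium-activated class went from at most 1.85 to at least 15.6 FPKM and the auxiliary class from at most 2.36 to at least 20.1 FPKM, while the other classes differed far less.

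Of the 83 genes, 11 had at least 1 FPKM in at least 3 libraries and were tested, with limma-trend on log2(FPKM + 1) over all 11694 genes that passed this filter. Among them 7 were higher and 3 lower in resistant cells at an adjusted p under 0.05 with Benjamini-Hochberg adjustment, and KCNJ11 did not pass. For 10 of the 11 the groups did not overlap, as for 74.4% of all tested genes. Over all tested genes 67.7% were called, 35.2% higher and 32.5% lower. Of the 11, 6 met the filter with resistant libraries only and 2 with sensitive libraries only. The filter thus fixed both their direction and their lack of overlap. The shares called and without overlap are therefore no measure of these genes as a group. By class, 2 of 4 tested voltage-gated genes were higher and 2 lower, the 2 calcium-activated genes went opposite ways, both auxiliary genes and the single K2P gene were higher, and 1 of 2 inward rectifiers was higher. Fold changes below are resistant over sensitive on the log2(FPKM + 1) scale, which understates the change of genes at low values.

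**Figure D3:**
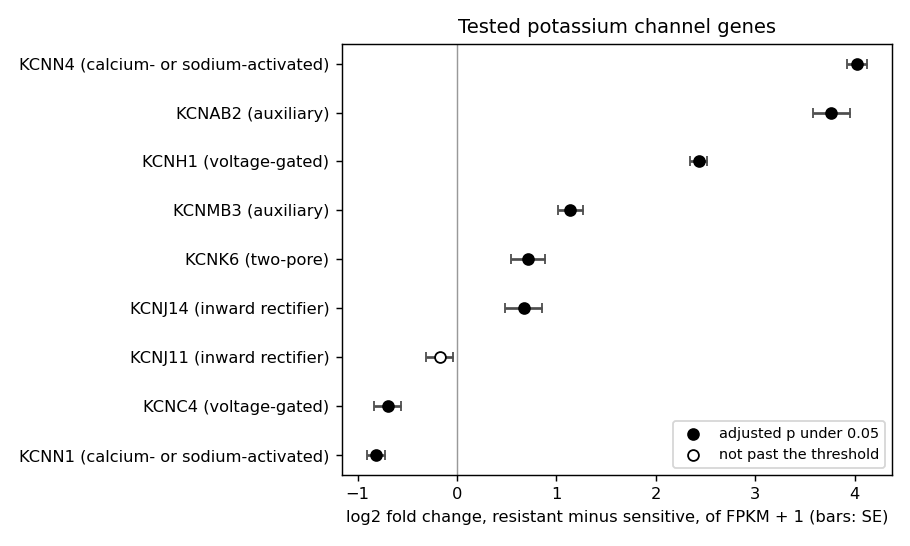
Log2 fold change of FPKM + 1, resistant minus sensitive, for 9 of the 11 tested potassium channel genes on the horizontal axis, with bars of 1 standard error and filled points for genes past an adjusted p of 0.05. KCNN4, KCNAB2 and KCNH1 lie farthest to the right at 4.03, 3.76 and 2.43, KCNN1 farthest to the left at -0.82, and KCNJ11 is the single open point.

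KCNN4 gave the largest change among the 11 tested genes. It encodes the intermediate-conductance channel KCa3.1, which opens when calmodulin bound to it takes up calcium and which hyperpolarises cells during calcium signals. The sensitive libraries held 0.0242, 0 and 0 FPKM of it and the resistant libraries 15.0, 15.8 and 15.6 FPKM. The sensitive value in replicate 1 corresponded to 3 reads or fragments, and the resistant values to between 1828 and 1946. The resistant libraries were thus all high and close together, and the sensitive ones at or near 0. The log2 fold change was 4.03 (SE 0.1003, limma adjusted p = 4.41e-07).

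KCNN1, which encodes the small-conductance calcium-activated channel SK1, moved the other way. It stood at 1.65, 1.81 and 1.41 FPKM in sensitive libraries and 0.487, 0.458 and 0.522 FPKM in resistant ones, with no overlap. This gave a log2 fold change of -0.82 (SE 0.0902, limma adjusted p = 0.000208). The remaining members of this class were far lower. KCNMA1, the pore of the large-conductance BK channel, was listed at 0, 0.000676 and 0 FPKM in sensitive libraries and 0.0312, 0.0317 and 0.0433 FPKM in resistant ones. KCNT2, a sodium-activated channel gene, was at 0.0311 to 0.0625 FPKM in the sensitive and 0.116 to 0.130 FPKM in the resistant libraries.

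Among voltage-gated channels, KCNH1 had the largest rise. It encodes the ether-à-go-go channel Kv10.1, normally found mostly in brain and often detected in tumours. The sensitive libraries held 0.00297, 0.00294 and 0.00608 FPKM of KCNH1, which corresponded to 1, 1 and 2 reads or fragments, and the resistant libraries 4.30, 4.72 and 4.27 FPKM. Every resistant library was high and every sensitive one barely above 0. On the log2 scale the change was 2.43 (SE 0.0854, limma adjusted p = 1.05e-06). KCNH1-IT1, a transcript named as intronic to KCNH1 and not counted among the members, was listed at 0 in all sensitive libraries but reached 0.683, 0.407 and 0.813 FPKM in resistant ones. Other KCNH genes stayed low. KCNH8 was listed at 0 in all 3 sensitive libraries but measured 0.251, 0.241 and 0.413 FPKM in the resistant libraries, and KCNH3 was at 0.0949 to 0.393 FPKM in the sensitive and 0.121 to 0.188 in the resistant libraries, with overlap.

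The upstream sequences of KCNN4 and KCNH1, which rose from near 0, and of KCNK13, which was near 0 in the resistant libraries, are shown because these 3 genes had the most complete contrasts among those with a single start site in the promoter table. They were chosen after their values were seen. Each is the 250 bases before the start site in RefSeq on GRCh38.p14, 5′ to 3′ on the gene's strand. The KCNN4 stretch is chr19:43780974-43781223 on the minus strand, that of KCNH1 chr1:211134149-211134398 on the minus strand and that of KCNK13 chr14:90061744-90061993 on the plus strand. Capitals mark matches on either strand to 3 motifs that were searched and do not overlap here, the GC box GGGCGG, the AP-1 motif TGANTCA and the TATA motif TATAAA.
KCNN4: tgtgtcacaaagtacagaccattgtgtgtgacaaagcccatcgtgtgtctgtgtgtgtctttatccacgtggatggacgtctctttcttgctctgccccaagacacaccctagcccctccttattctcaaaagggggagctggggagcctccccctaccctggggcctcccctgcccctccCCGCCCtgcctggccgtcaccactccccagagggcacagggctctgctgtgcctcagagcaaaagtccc
KCNH1: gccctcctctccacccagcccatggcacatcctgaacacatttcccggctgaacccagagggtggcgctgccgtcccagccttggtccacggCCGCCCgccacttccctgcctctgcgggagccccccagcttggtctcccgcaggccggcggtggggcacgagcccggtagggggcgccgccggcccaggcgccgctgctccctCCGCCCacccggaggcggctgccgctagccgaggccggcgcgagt
KCNK13: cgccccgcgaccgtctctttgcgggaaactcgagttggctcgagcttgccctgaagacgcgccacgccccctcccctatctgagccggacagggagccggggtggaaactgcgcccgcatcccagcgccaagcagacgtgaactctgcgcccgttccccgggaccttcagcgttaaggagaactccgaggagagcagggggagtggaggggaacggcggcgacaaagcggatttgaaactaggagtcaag
KCNN4 held 1 GC box, 69 bases before the start, and KCNH1 held 2, at 158 and 45 bases before it. KCNK13 held none, and 42.6% of the 35116 upstream stretches of this length in the table held at least 1. None of the 3 stretches held an AP-1 or TATA motif, which were present in 6.57% and 10.7% of all stretches. KCNN4 had 5 CpG dinucleotides and KCNH1 and KCNK13 had 25 each, against a median of 11 over all stretches (quartiles 3 and 23). Of the 13 genes that reached 1 FPKM, 10 had an entry in the table.

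KCNC4, which encodes Kv3.4, a channel that opens and closes fast at strong depolarisation, was lower in resistant cells. It stood at 3.20, 3.73 and 2.89 FPKM in the sensitive and 1.37, 1.54 and 2.02 FPKM in the resistant libraries. It thus remained above 1 FPKM everywhere, and the groups did not overlap. Its log2 fold change was -0.70 (SE 0.138, limma adjusted p = 0.00361). KCNC4-DT, a noncoding transcript divergent from KCNC4, stood at 0.223, 0.154 and 0.137 FPKM in the sensitive and 0.0226, 0.0449 and 0.0224 FPKM in the resistant libraries.

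KCND1, which encodes the A-type channel Kv4.1, fell short of the filter. It was at 0.210, 0.118 and 0.345 FPKM in the sensitive and 1.097, 0.825 and 1.26 FPKM in the resistant libraries, and all resistant values lay above the sensitive ones. The 2 other KCND genes, KCND2 and KCND3, were at or below 0.0202 FPKM in every library.

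Electrically silent subunits, which carry a voltage sensor and pore but work only in assembly with other voltage-gated subunits, were low throughout. The 8 genes of the KCNF, KCNG, KCNS and KCNV groups summed to 0.744 to 1.14 FPKM in the sensitive and 0.282 to 0.415 FPKM in the resistant libraries. KCNF1 was at 0.385, 0.228 and 0.799 FPKM in sensitive libraries and 0.0223, 0.0665 and 0 FPKM in resistant ones. KCNG3 was at 0.490, 0.363 and 0.237 FPKM in sensitive libraries and 0, 0 and 0.00683 FPKM in resistant ones. KCNS1 was placed the other way, at 0.0498, 0.0796 and 0.0314 FPKM in sensitive and 0.276, 0.316 and 0.266 FPKM in resistant libraries. None of the 8 had enough signal to enter the test. The groups did not overlap for KCNF1, KCNG1, KCNG3 and KCNS1.

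The KCNQ genes, which encode slowly gated Kv7 channels, were low as well. KCNQ1 was listed at 0 in all sensitive libraries and at most at 0.0293 FPKM in a resistant one. The noncoding RNA KCNQ1OT1, transcribed antisense to KCNQ1 from its imprinted locus, was at 0.0360, 0.0305 and 0.0245 FPKM in the sensitive and at 0, 0.000277 and 0.00166 FPKM in the resistant libraries.

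Auxiliary subunits included the highest gene of the resistant libraries. KCNAB2 encodes the cytoplasmic subunit Kvβ2, which binds Kv1 channels and has an aldo-keto reductase fold. It was at 0.292, 0.191 and 0.842 FPKM in the sensitive and at 17.7, 17.2 and 20.0 FPKM in the resistant libraries. All resistant values were far above the sensitive ones, among which replicate 3 was the highest. The ratio of the means was 41.4, and the log2 fold change was 3.76 (SE 0.187, limma adjusted p = 4.48e-06), or 3.95 without sensitive replicate 3. NPHP4, whose exons overlap KCNAB2 on the opposite strand in GENCODE release 29, averaged 1.46 FPKM in the sensitive and 0.807 FPKM in the resistant libraries.

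KCNAB subunits assemble with Kv1 pore genes' products, and the Kv1 pore genes that were measured stayed far under 1 FPKM in every library. KCNA3 and KCNA5, also Kv1 pore genes, were not among them, so their levels are unknown. The 5 KCNA genes in the files, KCNA1, KCNA2, KCNA4, KCNA6 and KCNA7, summed to 0.0870 to 0.252 FPKM in the sensitive and to at most 0.00615 FPKM in the resistant libraries. KCNA7 accounted for most of that, at 0.225, 0.186 and 0.0870 FPKM in the sensitive and 0.00615, 0 and 0 FPKM in the resistant libraries. The related KCNAB3 was at 0.283 to 0.419 FPKM in the sensitive and 0.272 to 0.392 FPKM in the resistant libraries, with overlap, and KCNAB1 stayed at or below 0.0341 FPKM.

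KCNMB3, a beta subunit of the BK channel, was at 0.413, 0.302 and 0.148 FPKM in the sensitive and 1.45, 2.09 and 1.98 FPKM in the resistant libraries, without overlap. Its log2 fold change was 1.14 (SE 0.127, limma adjusted p = 0.00022). KCNMB4, another beta subunit, was at 0.251, 0.336 and 0.483 FPKM in the sensitive and 0.0656, 0.0896 and 0.0570 FPKM in the resistant libraries and was not tested. The BK pore KCNMA1 itself did not exceed 0.0433 FPKM in any library. Exons of PIK3CA overlap KCNMB3 on the opposite strand in GENCODE release 29, and PIK3CA averaged 0.896 FPKM in the sensitive and 3.25 FPKM in the resistant libraries. The strand setting of the counting is not stated, so reads from the exon stretches that KCNMB3 and PIK3CA share cannot be told apart.

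KCNE and KCNIP genes encode single-pass and calcium-binding auxiliary subunits of voltage-gated channels. KCNE5 was at 0.308, 0.440 and 0.263 FPKM in the sensitive and 0, 0.0172 and 0.0516 FPKM in the resistant libraries. The 4 other KCNE genes stayed at or below 0.122 FPKM. KCNIP2 overlapped between groups, at 0.195 to 0.592 FPKM in the sensitive and 0.236 to 0.401 FPKM in the resistant libraries. KCNIP3, also known as calsenilin or DREAM, was listed at 0 in all 3 sensitive libraries but measured 0.167, 0.129 and 0.151 FPKM in the resistant ones. These values would be 22, 17 and 20 reads or fragments, but a step found from only 3 nonzero values is uncertain.

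Of the leak channels of the K2P class, 1 gene was tested. KCNK6, which encodes TWIK-2, was the member with the highest sensitive level and one of the 2 above 1 FPKM in all libraries. It was at 4.56, 5.22 and 4.52 FPKM in the sensitive and 7.73, 7.19 and 10.9 FPKM in the resistant libraries, without overlap and with resistant replicate 3 the highest. KCNK6 had a log2 fold change of 0.72 (SE 0.170, limma adjusted p = 0.0082), and 0.55 without resistant replicate 3 (adjusted p = 0.0216, in a range of 0.00454 to 0.0264 over all settings tried). KCNK13, which encodes the halothane-inhibited channel THIK-1, was at 2.95, 2.30 and 0.440 FPKM in the sensitive and at 0, 0.0111 and 0 FPKM in the resistant libraries. The single nonzero resistant value corresponded to 1 read or fragment. Sensitive replicate 3 was far below the other sensitive libraries, which kept KCNK13 from passing the filter. KCNK15 was listed at 0 in all 3 sensitive libraries but measured 0.145, 0.149 and 0.160 FPKM in the resistant ones.

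Inward rectifiers were low in both groups. KCNJ11 encodes Kir6.2, the pore of the ATP-sensitive potassium channel that couples metabolism to membrane potential. It was at 1.07, 1.37 and 0.747 FPKM in the sensitive and 0.772, 1.02 and 0.662 FPKM in the resistant libraries, and the groups overlapped. This was a log2 fold change of -0.17 (SE 0.138, limma adjusted p = 0.295). Without sensitive replicate 3 it was -0.29 and passed the threshold (limma adjusted p = 0.0411), as it did under quantile normalization (-0.32, adjusted p = 0.0329), and over all settings tried the adjusted p ran from 0.0329 to 0.691. The sulfonylurea receptor genes ABCC8 and ABCC9, whose products complete the ATP-sensitive channel, were at most at 0.0876 and 0.0162 FPKM in any library.

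KCNJ14, which encodes Kir2.4, was at 0.236, 0.505 and 0.910 FPKM in the sensitive and 1.42, 1.07 and 1.86 FPKM in the resistant libraries, without overlap. KCNJ14 had a log2 fold change of 0.67 (SE 0.189, limma adjusted p = 0.0172). The call was lost under quantile normalization (0.51, limma adjusted p = 0.0881), without sensitive replicate 2 (0.66, adjusted p = 0.0514) and without resistant replicate 3 (0.55, adjusted p = 0.0615), in a range of 0.000928 to 0.0881 over all settings tried. GRWD1, whose exons overlap KCNJ14 on the same strand in GENCODE release 29, averaged 13.6 FPKM in the sensitive and 15.1 FPKM in the resistant libraries. Reads from the exon stretches that KCNJ14 and GRWD1 share cannot be told apart. KCNJ15, which encodes Kir4.2, was at 0.214, 0.138 and 0.359 FPKM in the sensitive libraries and listed at 0 in all resistant ones. KCNJ12 was listed at 0 in all 3 sensitive libraries but measured 0.0564, 0.0734 and 0.0517 FPKM in the resistant ones, and its near-identical copy KCNJ18 was listed at 0 in all 6, so how reads were divided between these copies is uncertain. KCNJ5-AS1, left out of the members as an antisense transcript, was at 0, 0.0325 and 0 FPKM in the sensitive and 2.59, 3.45 and 3.06 FPKM in the resistant libraries, while KCNJ5 itself did not exceed 0.0123 FPKM.

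Below the filter lay 72 members. Their groups did not overlap for 30 (41.7%), of which 17 were higher and 13 lower in resistant cells, against 31.0% of all 12738 untested genes. With no filter, 77 members entered the fit, and limma called 16 higher and 12 lower, or 36.4%, against 44.6% of all 22521 genes in that fit. Of these, 9 higher and 9 lower calls came from the 66 members below the filter. In all, 20 members reached 0.1 FPKM in some library but never 1 FPKM. KCNF1 had the highest value among them, 0.799 FPKM in sensitive replicate 3. In the same way, 14 members were listed at 0 in all sensitive libraries and above 0 in a resistant one, and 17 the reverse. Some of these, such as KCNQ3 and KCNE1, were above 0 in 1 library only, for which the number of reads could not be worked out. The share of all genes split in this way was not determined, so these counts are no result about the members. Members named here below 1 FPKM were chosen after their values were seen.

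**Figure D4:**
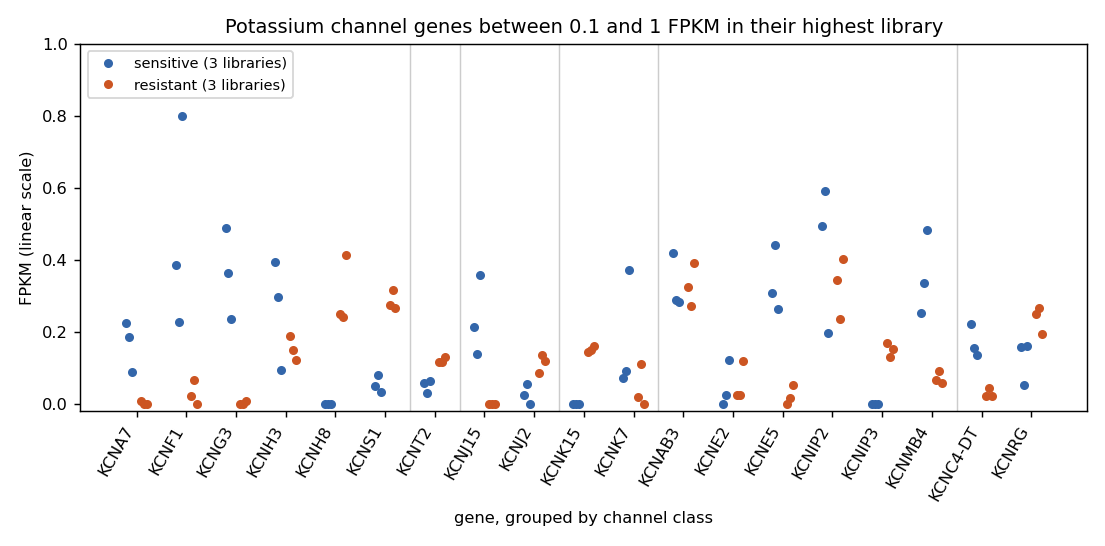
FPKM on a linear vertical axis for 19 of the 20 potassium channel genes whose highest library lay between 0.1 and 1 FPKM, with a point per library. KCNH8, KCNK15 and KCNIP3 are at 0 in all 3 sensitive libraries and above 0.12 FPKM in all 3 resistant ones, and KCNJ15 is at 0 in all 3 resistant libraries.

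Genes that act with potassium channels were described from 5 lists of 86 genes, of which 81 were in the files and 49 were tested. Of these 18 were higher, 17 lower and 14 did not pass, and 71.4% were called, close to the 67.7% of all tested genes. The median log2 fold change was 0.10, against 0.08 over all tested genes.

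The sodium-potassium pump builds the gradient on which potassium channels act. Of 6 tested genes of pump subunits and FXYD regulators, 2 rose, 3 fell and 1 did not pass, with a median log2 fold change of -0.51. FXYD5, a small membrane protein that associates with the pump, rose from 1.57, 2.01 and 1.76 FPKM to 118, 118 and 117 FPKM (log2 fold change 5.42, SE 0.105, limma adjusted p = 2.46e-07). FXYD3 stood at 3.06, 2.84 and 2.22 FPKM in the sensitive libraries and was listed at 0 in all resistant ones.

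Cation-chloride cotransporters move potassium with chloride and are switched by the WNK and SPAK kinases. Of 11 tested genes of this list 7 rose, 2 fell and 2 did not pass, with a median log2 fold change of 0.82. SGK1, a kinase that controls the surface level of channels and transporters, rose from 28.1, 26.1 and 13.9 FPKM to 136, 138 and 136 FPKM (log2 fold change 2.60). STK39, which encodes SPAK, rose from 0.0505 ± 0.0251 to 4.08 ± 0.276 FPKM (mean ± SD, n = 3, log2 fold change 2.27), and the sodium-potassium-chloride cotransporter SLC12A2 fell from 11.7 ± 3.92 to 2.54 ± 0.407 FPKM (-1.79).

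Calcium entry opens channels such as KCa3.1. Of 15 tested calcium entry genes 6 rose, 7 fell and 2 did not pass, with a median log2 fold change of -0.16. The mechanically gated channels went opposite ways. PIEZO1 rose from 12.5, 13.1 and 11.8 FPKM to 82.3, 76.9 and 70.5 FPKM (log2 fold change 2.53, SE 0.104, limma adjusted p = 2.06e-06), and PIEZO2 fell from 11.1, 11.2 and 10.2 FPKM to at most 0.0420 FPKM (-3.53). The T-type calcium channel CACNA1H fell from 12.4 ± 0.119 to 0.138 ± 0.114 FPKM (-3.57).

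Of 13 tested chloride channel genes, which carry the counter-ion of potassium in volume regulation, 2 rose, 4 fell and 7 did not pass, with a median log2 fold change of 0.02. LRRC8B, a subunit of the volume-regulated anion channel, rose by 1.09, whereas LRRC8E and CLCN2 fell by 0.95 and 1.14 on the log2 scale. Of 4 tested partners outside the KCN names, 1 rose, 1 fell and 2 did not pass, with a median of -0.45. The anchoring protein AKAP9 rose from 1.30 ± 0.749 to 5.24 ± 0.961 FPKM (log2 fold change 1.48), and HCN2, a pacemaker channel gene, fell from 13.6 ± 0.649 to 6.18 ± 0.598 FPKM (-1.03).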

How the data were processed

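RNA-seq tables of 3 sensitive and 3 resistant libraries were analysed, with groups and replicate numbers from the titles. Each deposited table gives a value per gene symbol. The scale of the values marks it as FPKM (or RPKM, which could not be told from it), computed by the authors. The submitters' processing notes name cutadapt and HISAT2. Their versions, the counting program, genome build, annotation and strand setting were not stated there. Read counts are not analysed here. Low values were whole multiples of a gene-specific step, taken as 1 read or fragment, in 97.3% of 2000 low genes within 0.05 of a step. Genes with few nonzero libraries meet this rule easily, so the share does not test the steps of such genes. For a gene above 0 in 1 library only, the step cannot be found. Steps were converted to reads where this could be done. No nonzero value was shared by any pair of libraries.

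The test was limma-trend (limma 3.58.1, R 4.3.3) on log2(FPKM + 1), pseudocount 1, with group as the only term. Tested genes had 1 FPKM or more in 3 or more of 6 libraries. Calls were made at an adjusted p under 0.05, with Benjamini-Hochberg adjustment across the whole fit, which was also tested on simulated data. Tables and figures used Python 3.11.15 with pandas 2.3.3, numpy 2.4.6 and matplotlib 3.10.9. The members and gene lists were chosen with earlier results of these data known. Genes were named where they passed the filter or reached 1 FPKM in any library, and per related list the up to 3 called genes with the largest change. Some genes that this rule names are not reported here. Promoter sequences are those of RefSeq on GRCh38.p14, and gene overlaps those of GENCODE release 29, whose symbols were matched to the tables. Other settings were quantile normalization, geometric mean scaling, no filter, a filter on a mean of 5 FPKM, pseudocount 0.1, limma with no trend, the replicate number as a block, and each library left out with the tested genes kept.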

Additional observations from a re-analysis of the deposited data

How the results depend on the processing

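In these tests 7 potassium channel genes were called higher and 3 lower, and 18 and 17 related genes. A mean of at least 5 FPKM left 7396 genes in the fit, of which 4973 were called against 7920, and 10 related genes were higher and 11 lower. It left 3 potassium channel genes, KCNAB2, KCNK6 and KCNN4, and limma called all 3 higher and 0 lower. With no filter 16 potassium channel genes were higher and 12 lower. Leaving out each replicate in turn gave 6675 to 9442 genes called, 6 to 7 potassium channel genes higher and 3 to 4 lower, and 15 to 22 related genes higher and 16 to 19 lower. Of 135 comparisons of a tested potassium channel gene with its value under another setting, 130 kept the direction and side of the threshold, and the other 5 concerned KCNJ14 and KCNJ11. The filter had fixed the direction of the 6 genes that met it with resistant libraries only and the 2 that met it with sensitive libraries only. The count is therefore no measure of how firm their direction is. Fold changes of low genes grew with a pseudocount of 0.1, KCNN4 to 7.18 and KCNH1 to 5.44 on the log2 scale. The replicate numbers did not pair the libraries. Deviations of same-numbered libraries from their group means correlated at -0.422, 0.072 and -0.228, and no library correlated best with its own number. With the replicate block 7193 genes were called, 7 potassium channel genes higher and 3 lower, and 15 and 16 related genes. Depth limits the genes at a few reads, for which a library at 0 and one at 1 read are not distinguishable.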
